A study of Mus musculus with 2 samples.

Results

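The genes described here encode the canonical IκB kinase (IKK) machinery and the NF-κB proteins it controls: the kinase gene Ikbkb, the scaffold gene Ikbkg, the IKK-related kinase gene Ikbke, the NF-κB subunit genes Rela, Rel and Nfkb1, the inhibitor genes Nfkbia, Nfkbib and Nfkbie, and the feedback enzyme gene Tnfaip3. They were chosen by name, as every gene probe whose gene name in the scanner files equals one of these 10 symbols. This gave 17 probes on 35 spots, of 41174 gene probes for 21337 named genes on each array, and 15 of the 17 were bright enough to be tested, of 23519 tested in all. RNA from keratinocytes labelled as a CHUK-LoxP mutant was hybridised in the Cy5 channel (red dye) of 2 Agilent mouse arrays, numbered as replicates in the labels. RNA from wild-type keratinocytes was in the Cy3 channel (green dye). The mutant is read here as Chuk-deleted, though the sample names do not state a deletion. Its channel is called the channel labelled Chuk-deleted below. The labels call all cells mouse keratinocytes, the main cell of the epidermis, and markers of other cell types were also measured. The labels used here name no Cre driver, age, strain, culture condition or number of animals and leave unstated if each array had its own cultures. Every limma p-value, from a fit over both arrays, thus speaks of array-to-array spread alone, which may be technical. The dyes were not swapped, so that dye and genotype cannot be told apart for any probe.

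The IKK complex holds the kinases IKKα (gene Chuk) and IKKβ (Ikbkb) on the scaffold NEMO (Ikbkg). On stimulation by cytokines such as TNF or IL-1, IKKβ phosphorylates the IκB proteins, which are then degraded and release NF-κB dimers, among them the dimer of p65 (Rela) and p50 (Nfkb1), into the nucleus. Genes of several inhibitors of the pathway, Nfkbia and Tnfaip3 above all, are themselves switched on by NF-κB and so close a negative feedback loop. In the epidermis the balance of this pathway is known for its part in inflammation and in the growth of keratinocytes, whereas IKKα is also known for a role in epidermal differentiation that does not need its kinase activity.

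Log2 ratios are Cy5 over Cy3 after background correction and loess normalisation within each array, so a positive value means a higher signal in the channel labelled Chuk-deleted. "Rose" and "fell" are used only for ratios past an adjusted p of 0.05 in limma (Benjamini-Hochberg adjustment over all tested probes). Signal intensities are in arbitrary units after loess and a quantile step on mean brightness. They are compared within a probe only, bar the sums over cell type markers. All directions hold relative to the loess centre. Centring each array on its median in place of the loess curve put the median of all tested probes at 0.47. Subtracting from each array the average of its control transcripts spiked in (the spike-in scale) put it at -0.74. Values under both are given beside each gene. The spike-in scale lowers every probe of an array by the same amount, 0.68 on array 1 and 0.836 on array 2. The controls differed by transcript, from -1.61 to 3.02 on array 1, so their average is no known zero. Signs and calls on the spike-in scale therefore do not give the direction of a gene. Median centring changes the centre and also drops the correction for brightness. An alternative chosen after seeing the data, median centring moved to the loess median, changes only that correction. It is given for each pathway probe where it changes a call or a sign or moves a value by over 1.5 times. For other genes it is given in part only, so its absence there does not mean that a value held. Chuk itself, the gene named in the mutant's label, gave intensities of 2300 and 2260 in the channel labelled Chuk-deleted on arrays 1 and 2, against 1390 and 1340 in wild type, at probe A_51_P223475. At its second probe, A_52_P386468, they were 641 and 548 against 337 and 320. Both probes were thus higher in the channel labelled Chuk-deleted (log2 ratios of 0.74 ± 0.02 and 0.85 ± 0.11, SD, n = 2), the opposite of a loss of Chuk RNA. With median centring alone they were at 1.35 and 1.32, and on the spike-in scale at -0.02 and 0.10, neither past the threshold there. The files do not place the probes relative to any deleted part, and a probe outside it checks nothing, so every direction below rests on the channel labels.

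The arrays lay on 1 slide and came from 1 scan, and between 52.6% and 64.0% of probes were well above background in a channel. Of all tested named genes, 61.3% were called (33.0% higher and 28.3% lower), so a call of a marker is by itself common. All 12 keratinocyte markers looked for were tested (6 rose and 6 fell), at a median log2 ratio of -0.01. Their summed intensities were 1070000 and 1080000 in the channel labelled Chuk-deleted against 752000 and 748000 in wild type. Each such sum is carried by its brightest probes, here Itgb4 and Krt14 among them, and is no measure of the amount of a cell type. Of 10 fibroblast markers, 8 rose and 1 fell (median 0.78), and their summed intensity was 191000 and 176000 against 116000 and 95300, with Vim the brightest. Of 7 melanocyte markers, 6 fell and 0 rose (median -1.15), with sums of 20200 and 17900 against 48300 and 49600. Tyr was not well above background in either channel. Of 8 macrophage and Langerhans cell markers, 4 were tested, of which 3 fell and 0 rose. Their sums were 3160 and 2950 against 4390 and 4210, and Ptprc, Itgam and Cd207 were not well above background. Of 4 T cell markers on the array (sums of 400 and 390 against 365 and 382), Cd3e was tested and rose, and Cd3g, Cd4 and Cd8a were not well above background. Of 5 endothelial markers (1520 on both arrays against 1380 on both), Kdr rose and Vwf fell, and Pecam1 and Tek were not well above background. Under the other centres the melanocyte markers had medians of -0.55 and -1.90 (median centring alone, then the spike-in scale) and the fibroblast markers 1.61 and 0.03. Median centring moved to the loess median put the keratinocyte median at 0.31. Cd3e then lay at -0.13 and did not pass, and 1 macrophage or Langerhans cell marker rose. The part of these cell types in the ratios below was not tested, and in bulk RNA fewer cells of a type and less RNA per cell cannot be told apart.

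Ikbke, Ikbkb, Nfkbia and 3 of 4 Nfkb1 probes rose, Rela fell at both of its probes, and Nfkbie fell. That is 6 probes higher and 3 lower of 15 tested, or 60%, against 61.4% of all tested probes (33.5% higher and 27.9% lower), so the share called was near the background. The median ratio of the 15 probes was -0.03, against 0.02 for all tested probes, and their median absolute ratio was 0.215 against 0.213. No tested probe reached 2-fold on both arrays under loess, against 3.84% of all tested probes, a share too small to set 15 probes apart. Some means did pass 2-fold under other normalisations, among them Ikbke, Nfkbia and a pair of Nfkb1 probes with median centring alone. Rela and Nfkbie did so on the spike-in scale, where the median of all tested probes was itself at -0.74. The plot of the probes by array shows each pair of values, and 14 of the 15 tested probes had the same sign on both arrays, with the exception of one Ikbkg probe at 0.00 and -0.06.

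**Figure D1:**
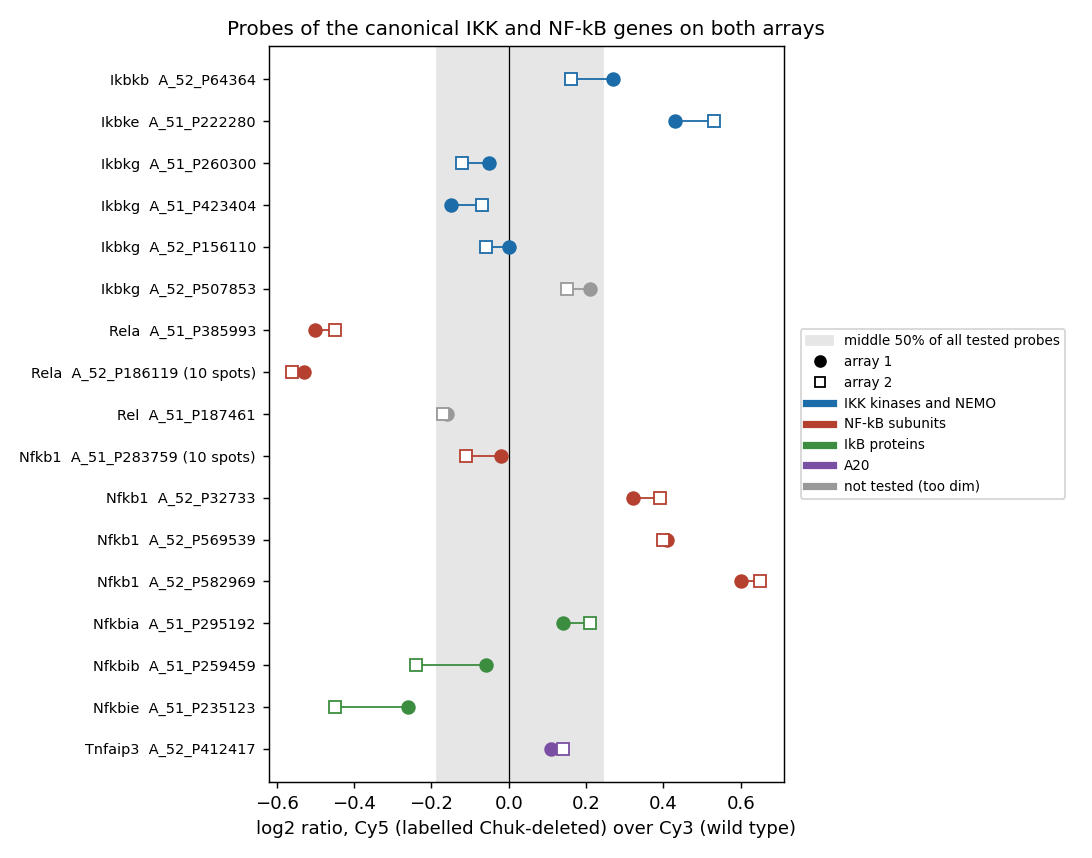
Log2 ratios of Cy5 (labelled Chuk-deleted) over Cy3 (wild type) of all 17 probes, a row each, with array 1 as filled circles and array 2 as open squares, coloured by role and grey where the probe was not tested. The grey band holds the middle 50% of all tested probes (-0.185 to 0.243); both Rela probes, Nfkbie, Ikbke and 3 Nfkb1 probes lie outside it on both arrays.

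**Figure D2:**
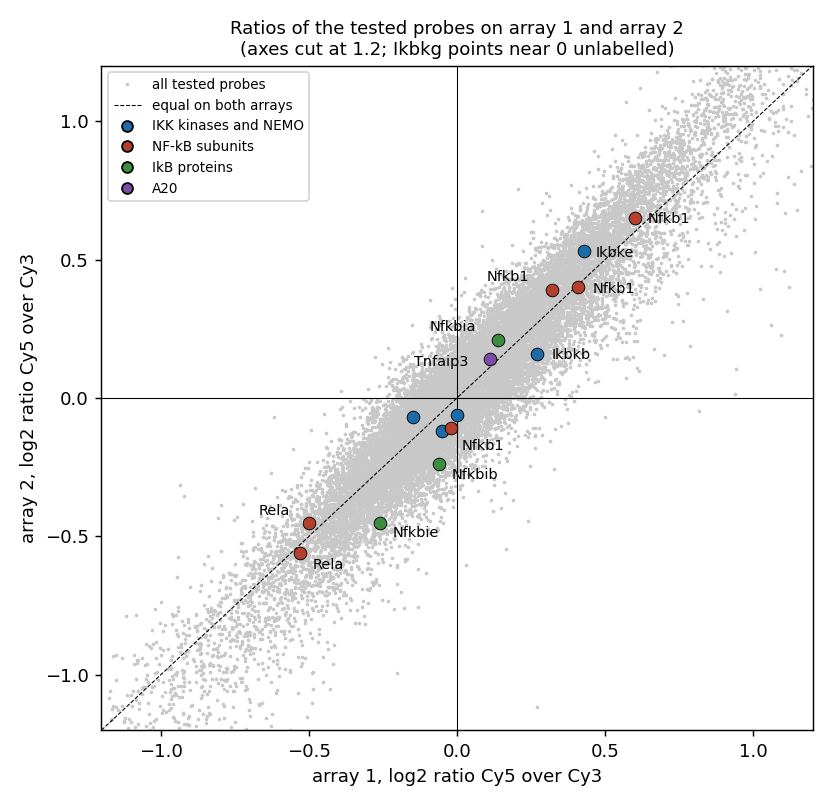
Log2 ratios of Cy5 over Cy3 on array 1 (horizontal) and array 2 (vertical) for all tested probes (small grey points) and the tested probes of the canonical pathway (coloured by role). The pathway's probes lie near the line of equal ratios, between -0.56 and 0.65 on either array.

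Among the kinases, Ikbke, which encodes IKKε, an IKK-related kinase best known for switching on interferon genes through IRF factors, changed most. Its intensities were 1040 and 1260 in the channel labelled Chuk-deleted, against 772 and 868 in wild type, so the channels did not overlap. It rose by 0.48 ± 0.07 on the log2 scale (SD, n = 2, 1.39-fold, adjusted p = 0.000612, limma), or by 1.05 with median centring alone. On the spike-in scale Ikbke lay at -0.28, a sign set by the shift that all probes share there. Set against the median of all tested probes, Ikbke was higher by 0.46 to 0.58 under every normalisation run. Ikbkb, the gene of the catalytic subunit IKKβ that phosphorylates IκB proteins, had intensities of 1730 and 1050, against 1440 and 935 in wild type. Array 2 was dimmer in both channels, so that levels overlapped across arrays, but the higher channel was the same on each. Ikbkb rose by 0.22 ± 0.07 (1.16-fold, adjusted p = 0.0153, limma), was at 0.80 with median centring alone, did not pass with the scanner software's own ratio (0.21, adjusted p = 0.0704, limma) and lay at -0.54 on the spike-in scale. Median centring moved to the loess median gave 0.35 for Ikbkb. Ikbke exceeded Ikbkb by 0.16 on array 1 and by 0.37 on array 2 on the log2 ratio scale.

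Ikbkg, whose product NEMO binds ubiquitin chains and holds the kinases together, was read by 4 probes. The probes for its RefSeq transcripts, A_51_P260300 (accession NM_010547) and A_51_P423404 (NM_178590), gave intensities of 149 and 160 against 155 and 174, and of 209 and 226 against 231 and 237. Their log2 ratios were -0.09 (95% interval -0.21 to 0.04, adjusted p = 0.205, limma) and -0.11 (-0.24 to 0.02, adjusted p = 0.126). Neither passed the test under loess. The brighter probe A_52_P156110, designed on a cDNA (AK042138) that the array annotation assigns to Ikbkg, had 484 and 411 against 485 and 430, a ratio of -0.03 (95% interval -0.16 to 0.09, adjusted p = 0.6). The probe A_52_P507853, on another such cDNA (AK048446), was well above background in Cy5 on 1 array and in Cy3 on none and was not tested. Its intensities were 95.3 and 86.6 in the channel labelled Chuk-deleted, against 82.4 and 78.3 in wild type, and no fold is given for it. With median centring alone, the 3 tested Ikbkg probes lay at 0.10, 0.21 and 0.44, and at -0.84, -0.87 and -0.79 on the spike-in scale. Median centring moved to the loess median put the RefSeq probes at -0.35 (adjusted p = 0.000712, limma) and -0.24 (adjusted p = 0.0119), past the threshold. It put A_52_P156110 at -0.01.

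Of the NF-κB subunits, Rela fell at both of its probes. It encodes p65, which carries the transactivation domain of the p65-p50 dimer. The bright probe A_51_P385993 had intensities of 3350 and 4700 in the channel labelled Chuk-deleted, against 4750 and 6410 in wild type. It fell by 0.47 ± 0.04 (0.72-fold, adjusted p = 0.000511, limma). The probe A_52_P186119, for the same transcript, was printed on 10 spots. Over these, Cy5 intensities ran from 181 to 226 (median 209) on array 1 and from 282 to 397 (median 310) on array 2, against Cy3 intensities from 256 to 337 (median 311) and from 416 to 565 (median 469). The channels did not overlap on either array, and all 10 spots were below 0 on each, from -0.68 to -0.39 on array 1 and from -0.61 to -0.49 on array 2. The spots are technical repeats of 1 hybridisation, with an SD of 0.10 and 0.04 between them. Averaged per array, they gave -0.53 and -0.56, and this probe fell by 0.55 ± 0.02 (0.685-fold, adjusted p = 0.000277, limma). With median centring alone, the probes lay at 0.20 (adjusted p = 0.0794, limma) and -0.14 (adjusted p = 0.229), both below the 0.47 at which all tested probes then centred, and at -1.23 and -1.30 on the spike-in scale. Median centring moved to the loess median gave -0.25 (adjusted p = 0.0111, limma) for the bright probe.

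Nfkb1 encodes p105, which is processed to the DNA-binding subunit p50 and in its full length acts as an IκB protein. Its 4 probes did not give a single answer. The probe A_51_P283759, designed on the mRNA M57999 and printed on 10 spots, had median intensities of 3060 and 1820 in the channel labelled Chuk-deleted, against 3110 and 1990 in wild type, and the spots of the channels overlapped on both arrays. Its spot ratios ran from -0.04 to 0.02 on array 1 and from -0.15 to -0.03 on array 2, and the mean of -0.06 (95% interval -0.19 to 0.07) did not pass (adjusted p = 0.367, limma). The other probes all rose and lay outside these ranges.

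The Nfkb1 probe A_52_P582969, on the cDNA BC050841, had intensities of 2660 and 2240 against 1760 and 1420 in wild type and rose by 0.62 ± 0.04 (1.54-fold, adjusted p = 0.000184, limma). The probe A_52_P569539, on AK048506, had 2280 and 1960 against 1720 and 1490 and rose by 0.40 (0.41 on array 1 and 0.40 on array 2, 1.32-fold, adjusted p = 0.000888). The dim probe A_52_P32733, on the cDNA AK036827 that the array annotation calls unclassifiable, had 172 and 226 against 138 and 172 and rose by 0.36 ± 0.05 (adjusted p = 0.00163). Within each array, BC050841 exceeded M57999 by 0.61 and 0.76 on the log2 ratio scale, and AK048506 exceeded it by 0.42 and 0.50. These differences do not depend on a common centre and were 0.59 and 0.75, and 0.40 and 0.50, with median centring alone, where the dim probe differed from M57999 by -0.09 and 0.10. On the spike-in scale the 3 probes that rose lay at -0.13, -0.36 and -0.40, and M57999 at -0.82. The place of the probes in the gene is not given in the files, so which transcripts they read was not tested. All 4 probes lay between 0.57 and 1.25 with median centring alone. Moved to the loess median, this put M57999 at 0.12 (adjusted p = 0.179, limma) and the dim probe at 0.13 (adjusted p = 0.155).

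**Figure D3:**
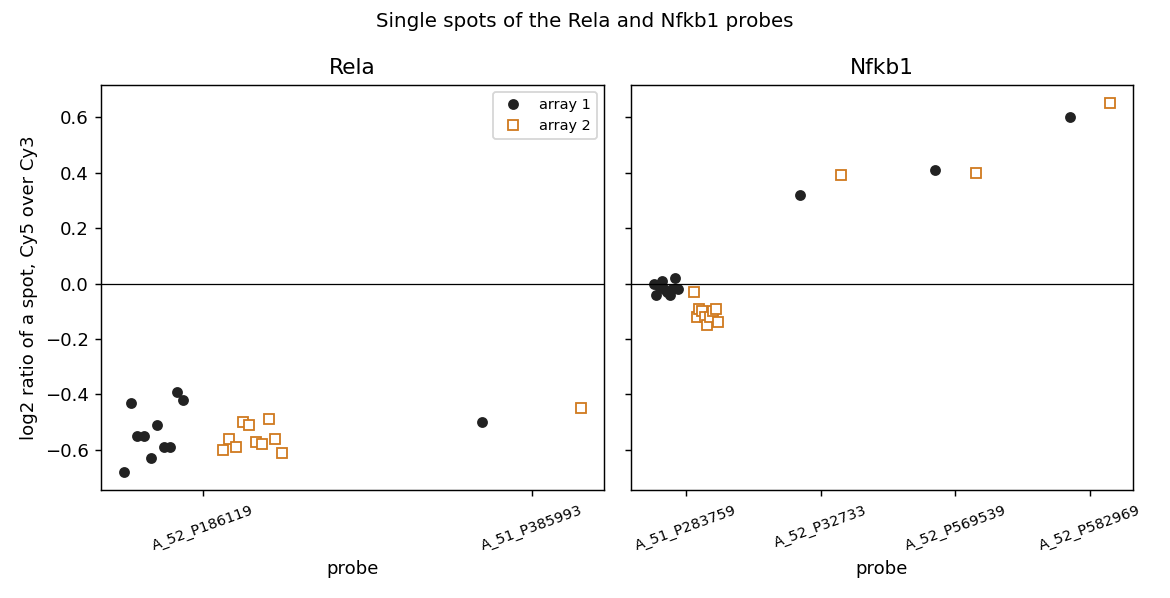
Log2 ratios of Cy5 over Cy3 of single spots for the 2 Rela probes (left) and the 4 Nfkb1 probes (right), with array 1 as filled circles and array 2 as open squares. Every Rela spot lies below 0, while the 10 spots of Nfkb1 probe A_51_P283759 lie between -0.15 and 0.02 and its other 3 probes at 0.32 or above.

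Rel, which encodes c-Rel, a subunit best known from lymphocytes, was not well above background in either channel on either array and was not tested. Its intensities were 68.5 and 73.6 in the channel labelled Chuk-deleted, against 76.4 and 82.6 in wild type, next to lowest signals well above background of 67.2 and 87.7 in Cy5 and of 86.2 and 80.0 in Cy3. No fold is given for it.

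The inhibitors did not move together. Nfkbia encodes IκBα, the main inhibitor that NF-κB induces against itself, Nfkbib encodes IκBβ, and Nfkbie encodes IκBε, a further inducible inhibitor. Tnfaip3 encodes A20, an induced ubiquitin-editing enzyme that shuts off signalling upstream of IKK. Promoter windows from RefSeq (GRCm38.p6), running from 250 bases before to 50 bases after the annotated start, were on hand for 8 of the 10 genes, all but Ikbkb and Nfkb1, and were searched on both strands for the κB consensus, the 10-base site that NF-κB dimers bind. The windows of Nfkbia, Nfkbie, Tnfaip3 and Rel hold it, 4 of 12 windows of these genes, against 8.46% of 32851 windows of the same length over all genes. Those of the 3 tested feedback genes are shown because the genes share this site, while Nfkbie fell and Nfkbia and Tnfaip3 did not. They read 5′ to 3′ along the gene, with the matches in capitals.
Nfkbia, chr12:55492598-55492897, minus strand: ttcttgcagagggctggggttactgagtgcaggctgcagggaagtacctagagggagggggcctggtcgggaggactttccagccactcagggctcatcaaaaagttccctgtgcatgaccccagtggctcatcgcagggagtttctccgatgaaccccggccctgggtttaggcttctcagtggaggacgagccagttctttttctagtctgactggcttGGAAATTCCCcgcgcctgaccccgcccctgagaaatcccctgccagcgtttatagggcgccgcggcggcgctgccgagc
Nfkbie, chr17:45555450-45555749, plus strand: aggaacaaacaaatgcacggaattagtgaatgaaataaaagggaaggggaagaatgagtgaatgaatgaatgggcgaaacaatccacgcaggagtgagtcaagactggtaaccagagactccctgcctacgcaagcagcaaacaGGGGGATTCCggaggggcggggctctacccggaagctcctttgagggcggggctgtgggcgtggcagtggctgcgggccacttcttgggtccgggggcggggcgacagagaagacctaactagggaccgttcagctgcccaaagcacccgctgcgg
Tnfaip3, chr10:19015361-19015660, minus strand: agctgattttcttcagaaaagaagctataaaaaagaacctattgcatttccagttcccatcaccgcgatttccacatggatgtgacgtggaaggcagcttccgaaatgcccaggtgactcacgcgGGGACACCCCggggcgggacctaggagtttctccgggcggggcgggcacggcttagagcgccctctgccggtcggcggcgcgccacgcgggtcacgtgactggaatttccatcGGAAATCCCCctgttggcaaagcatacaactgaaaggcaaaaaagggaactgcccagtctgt
The Nfkbia match lies at -29 to -20 from the annotated start and the Nfkbie match at -106 to -97. Tnfaip3 has a match at -125 to -116, which reads as a match on both strands, and another at -12 to -3. A second annotated Tnfaip3 window has none, and in Rel 2 overlapping matches lie at -92 to -82. A match is a run of letters and not a measured binding site.

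Nfkbia was very bright, with intensities of 37100 and 47600 in the channel labelled Chuk-deleted, against 33800 and 41300 in wild type, and no spot was saturated. The channel labelled Chuk-deleted was higher within each array, with overlap across arrays. Nfkbia rose by 0.17 ± 0.05 (1.13-fold, adjusted p = 0.0308, limma). This small rise did not pass with the scanner software's own ratio (0.14, adjusted p = 0.156, limma), and it was 1.01 with median centring alone and -0.59 on the spike-in scale. With median centring moved to the loess median it was 0.56 (adjusted p = 4.19e-06, limma). Tnfaip3 had 1900 and 2210 against 1770 and 2000, a ratio of 0.13 (95% interval 0.00 to 0.25) that did not pass (adjusted p = 0.0751, limma). Tnfaip3 was at 0.75 with median centring alone, at -0.63 on the spike-in scale and at 0.30 (adjusted p = 0.00266, limma) with median centring moved to the loess median.

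Nfkbie was lower, with intensities of 172 and 264 in the channel labelled Chuk-deleted, against 206 and 361 in wild type. It fell by 0.36 ± 0.13 (0.781-fold, adjusted p = 0.00363, limma) and was lower in each array, at -0.26 and -0.45, though intensities overlapped across arrays. With the scanner software's ratio, Nfkbie was at -0.56, with median centring alone at -0.02 (adjusted p = 0.863), which was 0.49 below the median of all tested probes, and at -1.11 on the spike-in scale. Nfkbib had 2340 and 2540 against 2430 and 3010. Its ratio of -0.15 ± 0.13 (95% interval -0.30 to 0.00) did not pass (adjusted p = 0.0818, limma), and its arrays differed, at -0.06 and -0.24. It lay at 0.49 with median centring alone, at -0.91 on the spike-in scale and at 0.04 with median centring moved to the loess median.

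Differences between genes of the pathway within an array are free of any shift shared by the whole array. Nfkbia exceeded Rela by 0.64 on array 1 and 0.65 on array 2 on the log2 ratio scale, each gene read by its brightest tested probe. This inhibitor-to-subunit difference was 0.60 and 0.62 with the scanner software's ratio and 0.83 and 0.77 with median centring alone. Nfkbib exceeded Rela by 0.45 and 0.20. Nfkbie exceeded Rela by 0.24 and 0.00, and its order against Rela turned with median centring alone, at -0.12 and -0.32, and on array 2 with the software's ratio, at 0.05 and -0.22. Ranked by the mean ratio of their brightest tested probe, the 9 tested genes ran Ikbke, Ikbkb, Nfkbia, Tnfaip3, Ikbkg, Nfkb1, Nfkbib, Nfkbie and Rela under loess. Ikbkb at 0.22 ± 0.07 and Nfkbia at 0.17 ± 0.05 did not differ beyond their spread, nor did Nfkbia and Tnfaip3 (0.13 ± 0.03), or Ikbkg and Nfkb1 (-0.03 ± 0.04 and -0.06 ± 0.06). The arrays of Ikbke and Ikbkb did not overlap, nor did those of Tnfaip3 and Ikbkg. By these probes, Ikbke stayed first under all 6 normalisations run, and Rela and Nfkbie held the last 2 places in each. The places of Ikbke and Nfkb1 depend on the probe read. Nfkb1 probe A_52_P582969, which is not the brightest of its gene, lay above Ikbke under every normalisation (0.62 against 0.48 under loess). The order on the spike-in scale is that of loess by construction.

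**Figure D4:**
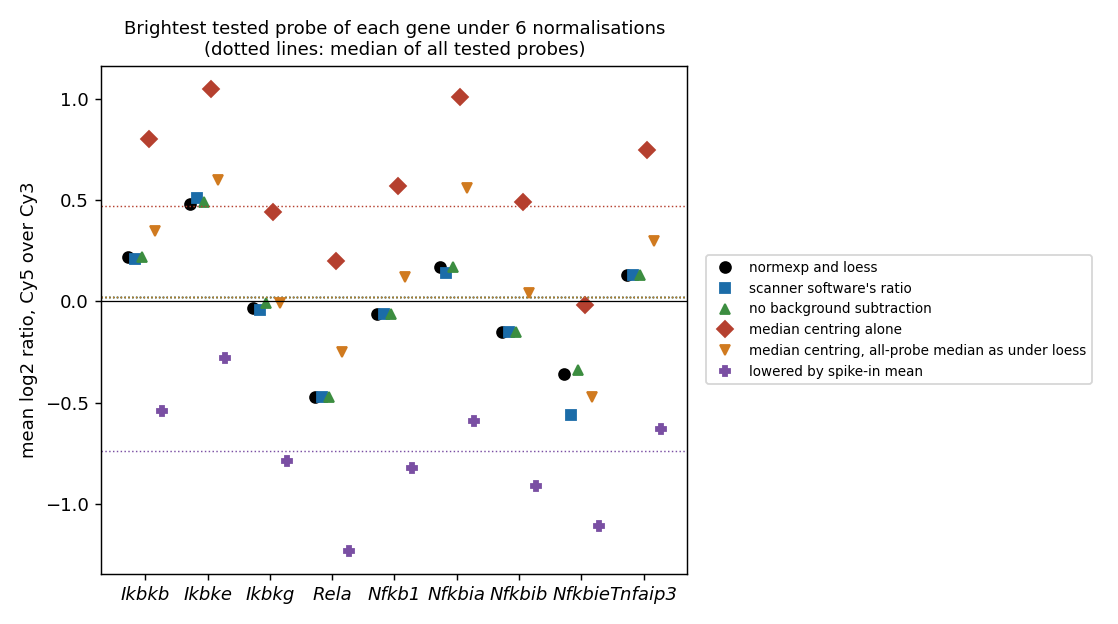
Mean log2 ratio of Cy5 over Cy3 for the brightest tested probe of each gene under 6 normalisations, with a dotted line at the median of all tested probes in each. By these probes Ikbke is the highest gene and Rela and Nfkbie the lowest 2 under every one, while the sign of most genes differs between normalisations. Nfkb1 probe A_52_P582969, not plotted, lay above Ikbke under each.

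The scanner software also gives a p-value for each spot's ratio from its error model within 1 array, which makes no use of the other array. In the deposited values, this p was under 0.05 in every spot on both arrays for 7 of the 15 tested probes, against 28.2% of all tested probes. These were Ikbke, both Rela probes, Nfkbie and the 3 Nfkb1 probes that rose. Ikbkb and Nfkbia did not meet that criterion.

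Around these genes, the other parts of the signalling pathway gave calls in both directions, at a share called near that of all genes. A list of 54 further genes (adaptors near the receptors, upstream kinases, ubiquitin enzymes and atypical IκB proteins) was chosen with earlier results of these data known. Of these, 51 were tested by their brightest probe, 12 rose and 22 fell, or 66.7% called. This compares with 61.3% of all tested named genes (33.0% higher and 28.3% lower). Median centring alone gave 35 that rose and 3 that fell. On the spike-in scale, which does not give directions, 0 were called higher and 48 lower. With median centring moved to the loess median, 18 rose and 19 fell, at a median of 0.02. Their median ratio was -0.13 (0.47 with median centring alone and -0.89 on the spike-in scale). Of the ubiquitin enzymes and editors, 10 of 17 tested were lower and 4 higher (82.4% called, median -0.21), but 1 lower and 11 higher with median centring alone. Of the atypical IκB proteins and cofactors, 4 of 9 fell and 2 rose (66.7% called), against 0 and 5 with median centring alone. Of the upstream kinases, 5 of 9 fell and 1 rose (66.7% called), against 1 and 7. Of the receptor-proximal adaptors and kinases, 3 of 16 fell and 5 rose (50% called), against 1 and 12. With median centring moved to the loess median, 6 ubiquitin enzymes and editors fell and 6 rose (median -0.09). The atypical IκB proteins and cofactors then had 4 lower and 4 higher. Upstream kinases had 4 lower and 2 higher, and the receptor-proximal group 5 lower and 6 higher.

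The largest fall in this group was that of Rnf11, a RING finger protein that works with A20. Its intensities were 1380 and 2530 in the channel labelled Chuk-deleted, against 4700 and 8360 in wild type, and it fell by 1.75 ± 0.03 (adjusted p = 1.63e-05, limma), and by 1.09 with median centring alone. Tnip1, which encodes the A20-binding protein ABIN-1, fell by 0.56 ± 0.01 (adjusted p = 0.000244, limma) and was at 0.09 with median centring alone. Median centring moved to the loess median put Tnip1 at -0.36.

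Of the upstream kinase group, Tab3, whose product couples the kinase TAK1 to ubiquitin chains, fell by 0.71 ± 0.01, and the kinase gene Map3k8 fell by 0.62. The atypical IκB gene Bcl3, whose product binds p50 dimers in the nucleus, had intensities of 1910 and 2870 in the channel labelled Chuk-deleted, against 3080 and 4660 in wild type, and fell by 0.70 ± 0.01 (adjusted p = 0.000121, limma). Tab3 and Bcl3 lay at -0.13 and -0.04 with median centring alone and did not pass, and Map3k8 fell by 0.56. Map3k8 is dim, and the scanner software's ratio put it at -1.32 and median centring moved to the loess median at -1.01. Ripk2, a kinase gene of the NOD receptors, also fell, but its size is uncertain, since Cy5 was well above background on 1 array and the ratio was -0.52 under loess and -1.29 with the software's ratio. The Ripk2 ratio was -0.89 with median centring moved to the loess median.

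The rises were led by Card10 (0.73 ± 0.15, and 0.53 at its second probe), a scaffold gene of the complex with Bcl10 and Malt1, and by the receptor adaptor gene Traf5 (0.69 ± 0.08). Ikbip (0.56 ± 0.02), Birc2, the gene of the ubiquitin ligase cIAP1 (0.41 ± 0.10), and Tab1, the gene of a TAK1 partner (0.39 ± 0.10), also rose. Each of these lay at or above 0.98 with median centring alone and between -0.37 and -0.02 on the spike-in scale. Tab1 was at 0.62 with median centring moved to the loess median. Malt1 rose by 0.44 at its brightest probe and fell by 0.47 at another, so its direction is not settled.

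A list of 45 textbook NF-κB target genes outside the pathway itself was chosen with earlier results of these data known. Of these, 37 were tested, 9 rose and 21 fell, or 81.1% called, against the same 61.3%. Because of that choice, the share called is no test of the list against all genes. By median centring alone 22 rose and 8 fell. On the spike-in scale, which does not give directions, 2 were called higher and 34 lower. With median centring moved to the loess median, 13 rose and 15 fell, at a median of -0.07. Their median was -0.21 (0.38 with median centring alone, below the 0.47 of all tested probes, and -0.97 on the spike-in scale). All 7 tested survival and feedback genes fell at their brightest probe (median -0.42). Other probes differed for Cflar, the gene of the caspase inhibitor c-FLIP, where 1 of 6 tested probes fell and 1 rose (0.17, adjusted p = 0.0403, limma), and for Xiap, whose second probe was at -0.04. Of the 7 genes, 6 fell with the scanner software's ratio and 5 with median centring moved to the loess median. With median centring alone 2 of them fell and 2 rose, at a median of -0.02, and on the spike-in scale all 7 were called lower. They include Gadd45b, a stress response gene, at -1.74 ± 0.33, with intensities of 7760 and 4550 in the channel labelled Chuk-deleted, against 22000 and 17800 in wild type. Chemokines and cytokines split into 7 lower and 3 higher of 12 tested (83.3% called), 4 and 7 with median centring alone, and 5 and 5 with it moved to the loess median. Csf2 (-3.27 ± 0.85), the gene of the growth factor GM-CSF, Cxcl10 (-2.48 ± 0.38) and Il1a (-1.42 ± 0.29) fell, while Csf3 (1.64 ± 0.20), the gene of G-CSF, and Cxcl2 (0.76 ± 0.11) rose.

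Of the adhesion and receptor genes, 3 of 7 rose and 2 fell (5 and 0 with median centring alone), or 71.4% called. The rises included the death receptor gene Fas (1.57 ± 0.12, and 0.48 at its second probe) and Cd40 (0.39 ± 0.05). Of the enzyme and defence genes, 5 of 11 fell and 3 rose (2 and 8 with median centring alone, and 3 and 5 with it moved to the loess median). That is 72.7% called, and 61.3% of all tested named genes were called. Saa3 (-1.90 ± 0.48) and Ptgs2 (-1.58 ± 0.09), the gene of the prostaglandin enzyme COX-2, were lowest. The protease gene Mmp9 (0.25 ± 0.01, and 0.71 at its second probe) and the immunoproteasome gene Psmb9 (0.23 ± 0.04) were among those that rose. Csf2, Cxcl10, Il1a, Gadd45b, Saa3, Ptgs2, Csf3 and Fas kept their direction and call under all normalisations run. Cd40, Mmp9 and Psmb9 were called lower on the spike-in scale and Cxcl2 was at 0.00 there, which does not give their direction. The largest mean among the tested probes of the canonical pathway was 0.62. Many of these targets also answer to other transcription factors, and which factor moved them was not tested.

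**Figure D5:**
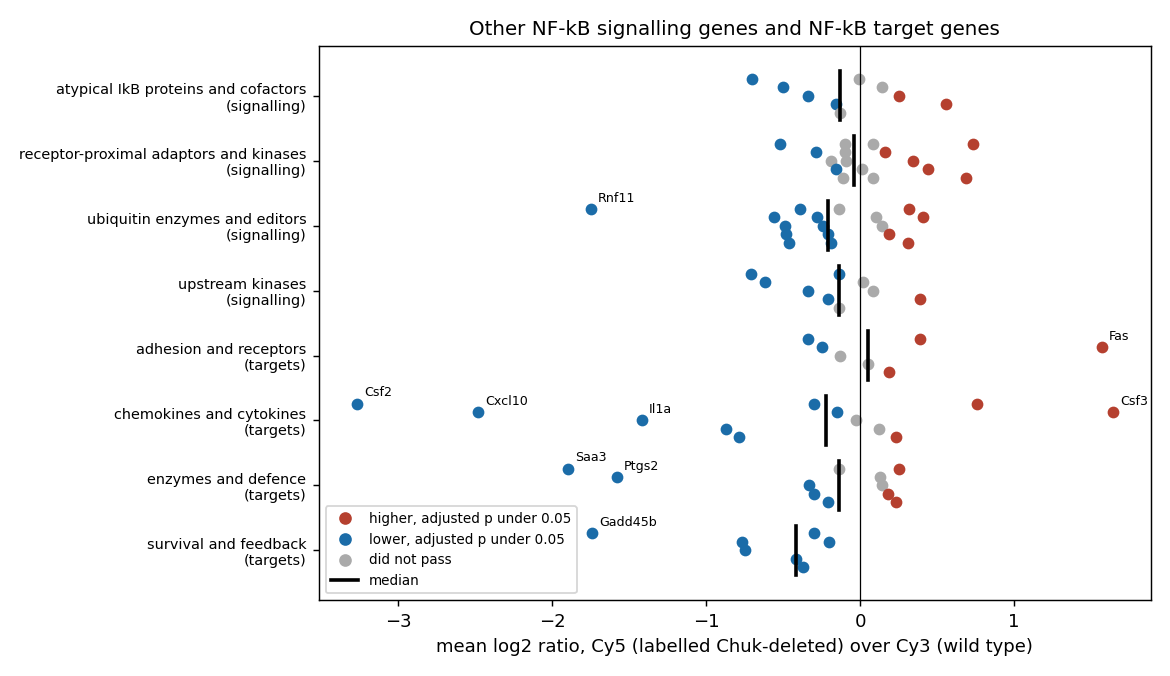
Mean log2 ratio of Cy5 over Cy3 for each tested gene of the 2 lists, by role, with the median of each role as a black bar and colours for genes that rose (red), fell (blue) or did not pass (grey). Under loess, survival and feedback targets all lie below 0 (4 of 7 do with median centring alone), and Csf2 at -3.27 and Csf3 at 1.64 mark the ends of the range.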

How the data were processed

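Agilent Feature Extraction 9.1.3.1 made the deposited scanner files, per the file headers. They hold the mean intensity and median local background of each spot (per the file headers, neither corrected), a processed intensity (background handled, detrended and dye normalised by the software), the log10 ratio of processed Cy5 over Cy3, that ratio's p-value from the software's error model (deposited per spot), and flags. The series' deposited values equal the log10 ratio column to within 0.005. Genome build and annotation are not given in the sources used here.

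In R 4.3.3 with limma 3.58.1, background was corrected by normexp (offset 50, which shrinks the ratios of dim probes), log2 ratios were normalised by loess (span 0.3) with control spots at weight 0, and outlier spots and controls were left out. Spots of a probe were averaged per array. A probe entered the fit if, on each array, either channel was well above background. Fits used lmFit and eBayes (5.16 prior and 1 residual degrees of freedom), mean against 0, two-sided, with Benjamini-Hochberg adjustment. The fit was tested on simulated data. Precision is limited by the number of arrays.

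Genes of the lists are named through RefSeq (GRCm38.p6) and read by their brightest tested probe. Of 23519 tested probes, 16129 were named by accession, 4721 by symbol or synonym and 628 by the file's own name. All members were reported. From the lists, up to 6 genes past the threshold per direction with the largest ratio were to be named. The members and lists were chosen with earlier results of these data known. Alternatives were the software's ratio, no background subtraction, median centring, the spike-in scale (each array minus the mean of its spike-in spots), other filters, and each array alone.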

Additional observations from a re-analysis of the deposited data

How the results depend on the processing

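No paired analysis was possible because the arrays form 1 group, each array already pairing the channels, and both lie on 1 slide and in 1 scan, so neither could enter as a block. The scanner software's ratio, no background subtraction and either change of filter kept the 15 tested pathway probes on their side of the threshold, except that Ikbkb (0.21) and Nfkbia (0.14) no longer passed with the software's ratio. Without the filter on dim probes 7 pathway probes were called higher, since Ikbkg A_52_P507853 was then tested and called. Each array alone, a value with no test, gave each called probe the same sign. Most signs differed between normalisations. With median centring alone, calls were 16430 higher and 1579 lower over all tested probes, 10 and 0 over the pathway's probes, 35 and 3 over the other signalling genes, and 22 and 8 over the target genes. On the spike-in scale they were 476 and 21179, 0 and 14, 0 and 48, and 2 and 34. The spike-in controls differed by transcript, from -1.61 and -2.07 (lowest, arrays 1 and 2) to 3.02 and 3.70 (highest), each with the same sign on both arrays. Their mean is therefore no known zero, and signs or calls on this scale do not give the direction of a gene. Signs turned with median centring alone for Ikbkg A_51_P260300 (0.10), A_51_P423404 (0.21) and A_52_P156110 (0.44), Rela A_51_P385993 (0.20), Nfkb1 A_51_P283759 (0.57) and Nfkbib (0.49). On the spike-in scale they turned for Ikbkb (-0.54), Ikbke (-0.28), Nfkb1 A_52_P32733 (-0.40), A_52_P569539 (-0.36) and A_52_P582969 (-0.13), Nfkbia (-0.59) and Tnfaip3 (-0.63). An alternative chosen after seeing the data, median centring shifted so that all tested probes had their loess median, gave 6 higher and 5 lower of the pathway's probes: Ikbkg A_51_P260300 (-0.35) and A_51_P423404 (-0.24) then fell, Tnfaip3 (0.30) rose, and Nfkb1 A_52_P32733 (0.13) no longer passed. Nfkbia was at 0.56 there, and Nfkb1 A_51_P283759 (0.12) and Nfkbib (0.04) turned sign without passing. The spike-in scale differs from loess in the centre alone, by construction. Median centring also leaves out the correction for brightness. Dim probes (Rel, Ikbkg A_52_P507853) are limited by signal over background.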
